A study of Mus musculus with 8 samples.

Results

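The 10 genes described here encode the VEGF ligands (Vegfa, Vegfb, Vegfc and Pgf), the PDGF ligands (Pdgfa, Pdgfb, Pdgfc and Pdgfd) and the neuropilins (Nrp1 and Nrp2). They were chosen by name, and all 16 probes annotated to them were taken, out of 25697 probes for 16593 named genes on the array. RNA of whole kidneys from 8 mice at postnatal day 10 (P10) was read on MouseRef-8 BeadChips of Illumina, on which each probe is carried by many beads. In 4 of the mice both Pkd1 alleles were the hypomorphic V allele (Pkd1V/V), which leaves polycystin-1 with reduced function and makes the kidneys cystic, and the other 4 were wild-type. Each array held 1 kidney, no treatment was given, and the allele was carried in all cells of the animal, so that tubules, vessels and interstitium were all mutant. The RNA was extracted from the pellet of a kidney homogenate, so transcripts of all kidney cell types were read together. In such bulk RNA, fewer cells of a type and less RNA per cell cannot be told apart.

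VEGF-A is secreted by podocytes and tubule cells and acts on the neighbouring endothelium through the tyrosine kinase receptors Kdr and Flt1, and it is needed for the glomerular and peritubular capillaries to form and to persist. VEGF-C acts mainly through Flt4 on lymphatic endothelium. Among the PDGF ligands, PDGF-B released by endothelium recruits mesangial cells and pericytes through Pdgfrb, whereas PDGF-A and PDGF-C act mainly on interstitial cells through Pdgfra. Neuropilins are co-receptors without a kinase that bind VEGF family ligands and class 3 semaphorins.

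Vegfa, Vegfc and Pdgfa signals were lower in Pkd1V/V kidneys, the Pdgfb signal was higher, and the probes of Vegfb, Pdgfc, Nrp1 and Nrp2 were not called. Of the 16 probes, 11 probes of 8 genes were above background (detection p-value below 0.05) in 3 or more of the 8 kidneys and were tested. At an adjusted P under 0.1 (limma, Benjamini-Hochberg over all tested probes) 1 of the 11 was called higher and 4 were called lower. Over all 14221 tested probes, 29.9% were called, 15.2% as higher and 14.7% as lower in Pkd1V/V kidneys. The 2 genotypes did not overlap at 5 of the 11 member probes, compared with 27.4% of all tested probes. The median log2 fold change of the 11 probes was −0.15, while that of all tested probes was 0.010. By role, 3 of 4 tested VEGF probes were called lower, 1 of 4 tested PDGF probes was called higher and 1 lower, and 0 of 3 tested neuropilin probes were called (limma), nor did any neuropilin probe reach an unadjusted P under 0.05 or a call by SAM. The probes for Pgf and Pdgfd, 1 of 3 Vegfa probes and 2 of 3 Nrp2 probes were above background on none of the 8 arrays and were not tested.

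**Figure D1:**
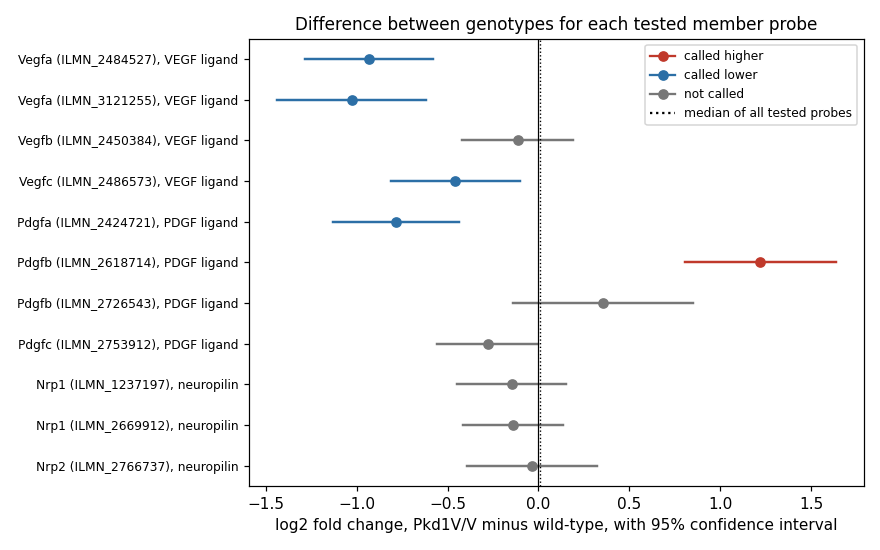
Log2 fold change (Pkd1V/V minus wild-type, horizontal axis) of each tested member probe with its 95% confidence interval from limma, coloured by call at an adjusted P under 0.1, with the median of all tested probes as a dotted line. Both Vegfa probes lie close to −1, Pdgfb probe ILMN_2618714 lies at 1.22, and the 3 neuropilin probes lie between −0.15 and −0.035.

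Several facts of the whole set touch these values. Between 51.8 and 54.3% of all probes were detected on each array. Wild-type replicate 4 carried transcripts of liver-secreted proteins, with a summed signal of 49820 for 5 liver genes against at most 10120 in the other wild-type kidneys. Apoa1 and Ahsg were detected in that kidney only, and Apoa2 was at 10030 there. Alb was below detection on all arrays, and Ttr alone gave 7653 to 9892 in the other wild-type kidneys. Pkd1V/V replicate 1 stood apart among the mutants, with the highest summed macrophage signal and the lowest summed proximal tubule signal of the 8 kidneys. Values are therefore also given without these kidneys where they move a call. The samples are labelled as separate kidneys, but nothing states which litters they came from. The P values set the difference between genotypes against the spread among kidneys within them, and litter could not be taken into account.

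Promoter sequence is shown for the 3 genes called lower, to let their start regions be compared. In the RefSeq promoter windows of GRCm38.p6, which run from 250 bases before to 50 bases after a transcript start, 9 of the 10 genes had an entry and 12 windows were given; Pdgfb had none. For Vegfa (chr17:46032328-46032627, minus strand) and Pdgfa (chr5:138994895-138995194, minus strand) the more upstream of 2 windows is printed, and Vegfc (chr8:54077282-54077581, plus strand) has 1. Each is written 5′ to 3′ along the gene, and capitals mark the GC box, the letters GGGCGG on either strand, which Sp1-family factors bind.
Vegfa: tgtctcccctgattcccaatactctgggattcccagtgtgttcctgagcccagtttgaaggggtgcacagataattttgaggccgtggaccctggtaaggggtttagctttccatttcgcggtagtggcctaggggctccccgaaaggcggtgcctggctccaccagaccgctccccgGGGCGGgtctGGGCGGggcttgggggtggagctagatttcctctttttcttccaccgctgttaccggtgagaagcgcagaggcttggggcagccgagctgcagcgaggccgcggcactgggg
Vegfc: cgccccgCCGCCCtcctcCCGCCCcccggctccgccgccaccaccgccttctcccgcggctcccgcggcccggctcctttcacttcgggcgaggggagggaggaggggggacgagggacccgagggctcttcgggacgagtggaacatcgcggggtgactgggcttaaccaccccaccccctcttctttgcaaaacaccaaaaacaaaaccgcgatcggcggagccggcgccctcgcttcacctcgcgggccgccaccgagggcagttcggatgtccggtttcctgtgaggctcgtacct
Pdgfa: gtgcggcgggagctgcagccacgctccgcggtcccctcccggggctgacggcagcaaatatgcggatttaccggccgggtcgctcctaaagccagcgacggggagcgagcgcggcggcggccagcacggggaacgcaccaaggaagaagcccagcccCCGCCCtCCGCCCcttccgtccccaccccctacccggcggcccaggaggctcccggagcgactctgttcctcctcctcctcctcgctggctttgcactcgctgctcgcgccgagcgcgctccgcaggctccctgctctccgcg
Each of these windows held 2 GC boxes. At least 1 GC box was found in 35.7% of all 32851 windows and in 9 of the 12 windows of the members. The motif did not separate the called members from the rest, since Vegfb, which was not called, held 4 and Nrp2 held 5, while Pdgfc and Pdgfd held 0. The core of the hypoxia response element, searched as ACGTG on either strand, was in 1 of the 12 windows, the downstream one of Vegfa, and in 19.6% of all windows. The other form of this core, GCGTG, was in 6 of the 12 windows (those of Vegfb, Nrp1 and Nrp2, the downstream one of Vegfa, the printed one of Pdgfa and 1 of Pgf) and in 32.4% of all windows. GCGTG was absent from the printed Vegfa and Vegfc windows. The downstream Vegfa window opens with letters of the study's forward qPCR primer for Vegf, so it begins in transcribed sequence of the gene. Both of its core matches lie close to that opening. No searched motif contains another. A match describes the letters only, and no match says only that they are not in this window.

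Vegfa, the main angiogenic ligand of the kidney, was lower in every Pkd1V/V kidney at both probes that were above background. At probe ILMN_2484527 the signal (arbitrary units after quantile normalization) was 885, 1493, 1152 and 1231 in Pkd1V/V replicates 1 to 4 and 2095, 2347, 2193 and 2368 in wild-type replicates 1 to 4. The highest mutant kidney lay well under the lowest wild-type kidney, and the mutants were spread more widely. The means were 1190 ± 251 and 2251 ± 130 (SD, n = 4 each), so that the wild-type mean was 1.89 times the mutant mean. Its log2 fold change was −0.93 ± 0.16 (SE; 95% confidence interval −1.29 to −0.58; adjusted P = 0.00273 from limma). The exact permutation test gave P = 0.0286 (two-sided), the smallest that 4 kidneys against 4 allow, and this holds for each member probe without overlap.

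The Vegfa probe ILMN_3121255, annotated to a different RefSeq transcript record of the gene, ran the same way at a lower signal. Its signal was 93.1, 184, 166 and 135 in Pkd1V/V replicates 1 to 4 and 317, 289, 325 and 283 in the wild-type kidneys. Again the groups did not overlap, and Pkd1V/V replicate 1 was the lowest kidney at both probes. The wild-type mean was 2.10 times the mutant mean, and the log2 fold change was −1.03 ± 0.18 (SE, adjusted P = 0.00350 from limma). Without Pkd1V/V replicate 1 the log2 fold changes of the Vegfa probes were −0.80 and −0.85, both still called (limma). The third Vegfa probe, ILMN_3045723, was annotated to the same record as ILMN_3121255 and gave 1.07 in Pkd1V/V replicate 3 and 0 in the other 7 kidneys, so it measured no level in either genotype.

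At the called Vegfa probes the spread between Pkd1V/V kidneys exceeded the largest error within an array. The spread between wild-type kidneys lay inside the range of that error over the arrays. For Vegfa probe ILMN_2484527, carried by 28 to 61 beads per array, the standard error over beads was 2.70 to 5.78% of the signal. The coefficient of variation between kidneys was 21.1% in Pkd1V/V and 5.77% in wild-type kidneys. For ILMN_3121255 these coefficients were 27.6 and 6.85%, and its standard error over beads was 4.75 to 8.37% of the signal. At both probes the wild-type coefficient lay within the range of the bead error over the arrays of both genotypes. At ILMN_2484527 it was just under the upper end of that range, so it exceeded the smaller bead errors.

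Vegfb, a ligand of Flt1 that is abundant in mitochondria-rich tissues, had overlapping groups. Its signal at ILMN_2450384 was 806, 772, 980 and 1023 in Pkd1V/V replicates 1 to 4 and 1016, 1018, 1003 and 828 in wild-type replicates 1 to 4. Mutant replicate 3 lay among the wild-type kidneys, mutant replicate 4 lay just above them, and wild-type replicate 4, the kidney with liver transcripts, lay among the mutants. The log2 fold change was −0.11 ± 0.14 (SE; 95% confidence interval −0.42 to 0.19; adjusted P = 0.602 from limma), and without wild-type replicate 4 it was −0.18 (adjusted P = 0.403). The interval of the difference therefore reaches from a modest decrease to a small increase.

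Vegfc, the ligand that drives lymphatic growth, had a low signal of 84.5, 122, 126 and 152 in Pkd1V/V replicates 1 to 4 and 181, 170, 169 and 156 in wild-type replicates 1 to 4. The groups did not overlap, but the highest mutant and the lowest wild-type kidney were only a few units apart. The wild-type mean was 1.40 times the mutant mean, with a log2 fold change of −0.46 ± 0.16 (SE, adjusted P = 0.0657 from limma). This call was the least stable among the members, and it was lost in 13 of the 23 alternatives run. It was lost in 6 of 8 fits with 1 kidney left out, namely those that dropped one of replicates 1, 2 and 3 of either genotype, where the log2 fold change stayed between −0.32 and −0.48 and the adjusted P lay between 0.1004 and 0.139 (limma). Pgf, the placental growth factor that binds Flt1, reached 8.21 in Pkd1V/V replicate 3 and was at or near 0 in the other kidneys, below detection on all arrays.

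**Figure D2:**
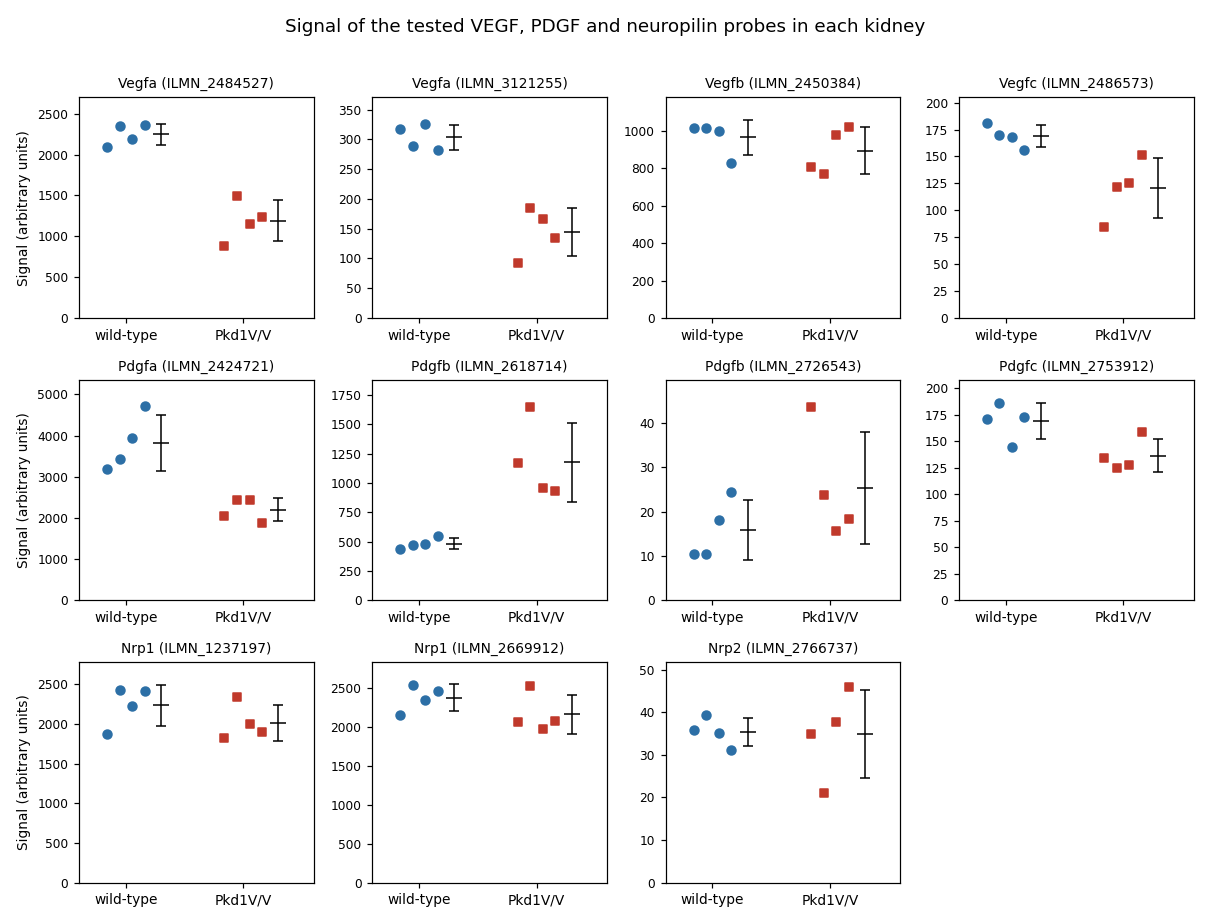
Signal of each tested member probe (arbitrary units, vertical axis from 0, separate scale for each panel) in the 4 wild-type (blue circles) and 4 Pkd1V/V kidneys (red squares), with the mean and SD beside them. The genotypes separate at both Vegfa probes, Vegfc, Pdgfa and Pdgfb probe ILMN_2618714, and they overlap at the other 6 probes.

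The PDGF ligands moved in opposite directions. Pdgfa, an epithelial ligand that acts on Pdgfra-bearing mesenchyme, had a signal of 2052, 2439, 2427 and 1884 in Pkd1V/V replicates 1 to 4 and 3188, 3421, 3944 and 4731 in wild-type replicates 1 to 4 at its only probe, ILMN_2424721. All 4 mutant kidneys lay below all 4 wild-type kidneys, and the highest value was that of wild-type replicate 4. The means were 2200 ± 277 and 3821 ± 684 (SD, n = 4 each), 1.74 times higher in wild-type kidneys. The log2 fold change was −0.78 ± 0.16 (SE; 95% confidence interval −1.13 to −0.44; adjusted P = 0.00599 from limma). Without wild-type replicate 4 it was −0.68 (adjusted P = 0.0131).

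Pdgfb, the ligand that attracts mural cells to vessels, was the only member called higher. At probe ILMN_2618714 its signal was 1168, 1648, 953 and 929 in Pkd1V/V replicates 1 to 4 and 435, 467, 479 and 549 in wild-type replicates 1 to 4. Every mutant kidney exceeded every wild-type kidney, and Pkd1V/V replicate 2 was the highest. The means were 1174 ± 333 and 482.7 ± 48.3 (SD, n = 4 each), a 2.43-fold difference. The log2 fold change was 1.22 ± 0.19 (SE; 95% confidence interval 0.81 to 1.64; adjusted P = 0.00154 from limma), and it stayed between 1.05 and 1.32 in the 8 fits with 1 kidney left out, all of them called.

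The other Pdgfb probe, ILMN_2726543, sat close to background and was detected on 2 mutant arrays and 1 wild-type array. It gave 43.5, 23.8, 15.6 and 18.3 in Pkd1V/V replicates 1 to 4 and 10.4, 10.4, 18.1 and 24.4 in the wild-type kidneys. The groups overlapped, and the log2 fold change was 0.36 ± 0.22 (SE, adjusted P = 0.291 from limma), or 0.16 (adjusted P = 0.587) without Pkd1V/V replicate 1, the highest kidney. Its standard error over beads, 18.3 to 23.3% of the signal where it was detected, was several times that of the brighter probe, 3.22 to 4.56%, so the Pdgfb result rests on 1 probe.

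Pdgfc, which acts on Pdgfra after its CUB domain has been cleaved off, gave 135, 125, 127 and 159 in Pkd1V/V replicates 1 to 4 and 171, 186, 145 and 173 in wild-type replicates 1 to 4. Wild-type replicates 1, 2 and 4 lay above all mutants, while wild-type replicate 3 lay below Pkd1V/V replicate 4. The log2 fold change was −0.28 ± 0.12 (SE, adjusted P = 0.141 from limma; exact permutation P = 0.0571, two-sided). Pdgfd, a ligand of Pdgfrb, was at 0 in 7 kidneys and at 1.74 in wild-type replicate 4, so neither genotype gave a measurable level.

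No neuropilin probe separated the genotypes. Nrp1, the co-receptor for VEGF-A on endothelium, gave 1821, 2345, 1998 and 1899 in Pkd1V/V replicates 1 to 4 and 1872, 2429, 2228 and 2417 in wild-type replicates 1 to 4 at ILMN_1237197. At ILMN_2669912 it gave 2057, 2528, 1976 and 2080 in Pkd1V/V kidneys and 2153, 2542, 2341 and 2464 in wild-type kidneys. At both probes replicate 2 was the highest kidney within each genotype, and the ranges overlapped over most of their width. The log2 fold changes of the Nrp1 probes were −0.15 ± 0.13 and −0.14 ± 0.12 (SE), with adjusted P of 0.478 and 0.462 (limma). Their 95% confidence intervals, −0.45 to 0.15 and −0.41 to 0.13, did not reach the change measured at either Vegfa probe.

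Nrp2, the co-receptor for VEGF-C and for Sema3f, was weak on these arrays. Its only tested probe, ILMN_2766737, gave 34.8, 21.1, 37.7 and 45.9 in Pkd1V/V replicates 1 to 4 and 35.9, 39.3, 35.1 and 31.1 in wild-type replicates 1 to 4. The mutant kidneys fell on both sides of the wild-type kidneys. With a log2 fold change of −0.035 ± 0.16 (SE; 95% confidence interval −0.39 to 0.32; adjusted P = 0.904 from limma) it was not called. The Nrp2 probe ILMN_2730813 was at 0 in all kidneys, and ILMN_3136656 reached at most 15.01, below detection.

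For the other genes of the pathway, each gene is given by its tested probe with the highest mean. Among all 9833 genes so represented, 31.5% were called (1593 higher, 1500 lower) and the median log2 fold change was 0.017. Of 5 receptor tyrosine kinase genes, 4 were tested, 2 were called lower, with a median log2 fold change of −0.45. This median includes Flt4, which was weakly detected in Pkd1V/V kidneys. Flt1, the receptor that binds VEGF-A, VEGF-B and Pgf, gave 868, 1164, 902 and 851 in Pkd1V/V and 1237, 1498, 1305 and 1418 in wild-type replicates 1 to 4. Its groups did not overlap, and its log2 fold change was −0.53 ± 0.14 (SE, adjusted P = 0.0199 from limma). Kdr, the main signalling receptor for VEGF-A, had 1 probe, which was above background on none of the arrays and reached at most 6.45, so nothing can be said of it here.

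Flt4, the receptor for VEGF-C, gave 18.7, 4.32, 20.5 and 22.2 in Pkd1V/V and 29.9, 31.2, 25.6 and 23.2 in wild-type replicates 1 to 4. It was detected in 2 mutant and 4 wild-type kidneys, so it passed the detection filter through the group where it is high, and no size is given. Flt4 was not called (adjusted P = 0.130 from limma). Pdgfra, the receptor for PDGF-A and PDGF-C on interstitial cells, gave 2054, 1480, 1463 and 1488 in Pkd1V/V and 1710, 2423, 2139 and 2558 in wild-type replicates 1 to 4. Mutant replicates 2, 3 and 4 lay below all wild-type kidneys, whereas Pkd1V/V replicate 1 lay among them. The log2 fold change of Pdgfra was −0.44 ± 0.17 (SE, adjusted P = 0.0907 from limma). This call was lost in 6 of 8 fits with 1 kidney left out (each one that dropped replicate 2, 3 or 4 of either genotype), with adjusted P up to 0.189. Pdgfrb, the mural cell receptor for PDGF-B, overlapped fully, with a mean signal of 333 ± 61.5 in Pkd1V/V and 348 ± 46.9 in wild-type kidneys (SD, n = 4 each) and a log2 fold change of −0.067 ± 0.16 (SE, adjusted P = 0.802 from limma).

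**Figure D3:**
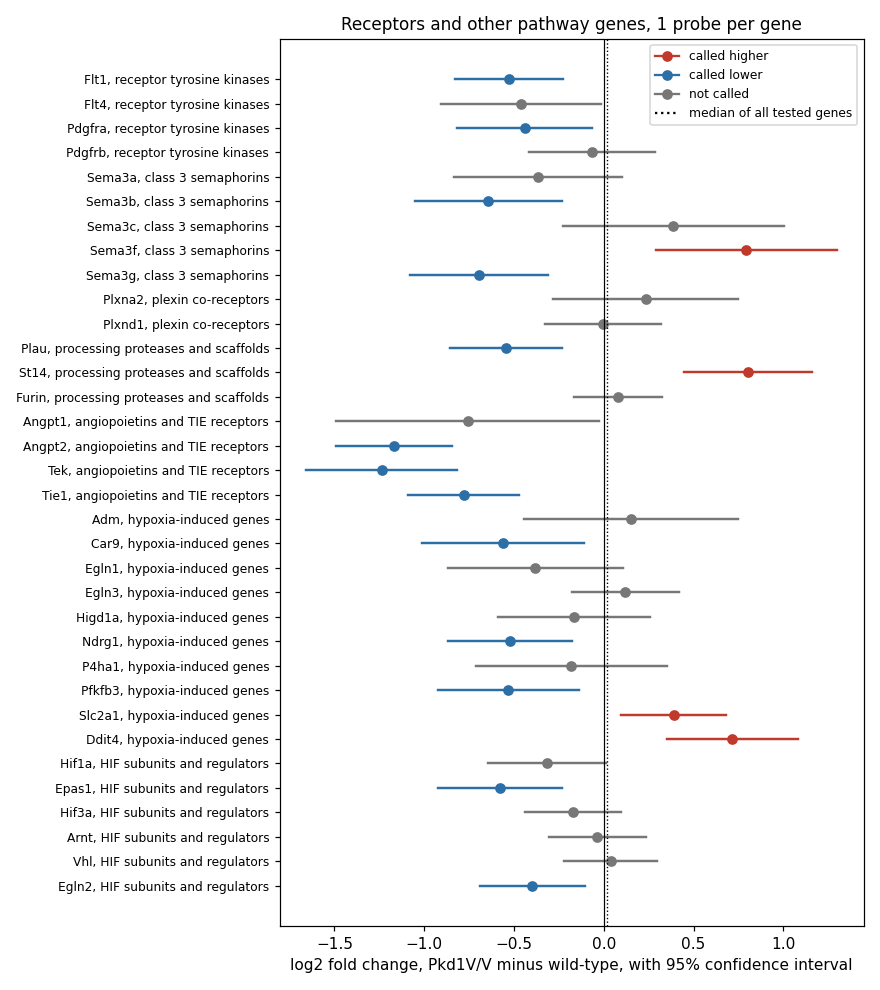
Log2 fold change (Pkd1V/V minus wild-type, horizontal axis) with its 95% confidence interval from limma for each tested gene of the pathway lists, 1 probe per gene, coloured by call. Angpt2, Tek and Tie1 lie furthest to the left, and St14, Sema3f and Ddit4 furthest to the right.

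Class 3 semaphorins, which compete with VEGF for neuropilins, were called in both directions (limma), with 1 of 5 tested genes higher and 2 lower and a median log2 fold change of −0.37. Sema3f, a ligand of Nrp2 that inhibits vessel growth, rose at both tested probes, by 0.79 ± 0.23 and 0.76 ± 0.20 on the log2 scale (SE, adjusted P of 0.0307 and 0.0219 from limma). Its signal at ILMN_1248740 was 615, 1018, 577 and 500 in Pkd1V/V and 308, 491, 339 and 362 in wild-type replicates 1 to 4, and the lowest mutant lay only slightly above the highest wild-type kidney. Sema3b fell by 0.64 on the log2 scale (adjusted P = 0.0321 from limma). Sema3g, an endothelial semaphorin, was called lower (adjusted P = 0.0167), but it was detected in all 4 wild-type kidneys and in only 1 Pkd1V/V kidney, so the size of its difference is not given. The second tested probe of Sema3b was not called, with a log2 fold change of 0.069. Of the plexins, the signalling partners of neuropilins, Plxna2 and Plxnd1 were tested and neither was called (log2 fold changes 0.23 and −0.0037, median 0.12, with adjusted P of 0.516 and 0.990 from limma).

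The proteases that release or activate VEGF and PDGF ligands were likewise split. Among 3 tested genes 1 was called higher and 1 lower (limma), with a median log2 fold change of 0.079. St14, the membrane protease matriptase, which can cleave PDGF-D and PDGF-C in vitro, rose by 0.81 and 0.68 on the log2 scale at its 2 probes. Its signal at ILMN_2624209 was 355, 295, 280.0 and 247 in Pkd1V/V and 143, 211, 142 and 153 in wild-type replicates 1 to 4, without overlap. Plau, the urokinase that activates PDGF-D, fell by 0.55 (adjusted P = 0.0200 from limma), from 3553 ± 189 in wild-type to 2452 ± 399 in Pkd1V/V kidneys (SD, n = 4 each). Furin, which processes VEGF-C and PDGF precursors, had a log2 fold change of 0.079 (adjusted P = 0.653).

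Of the angiopoietins and TIE receptors, which stabilise or loosen vessels beside VEGF, 3 of 4 genes were called lower (limma) and the median log2 fold change was −0.98. Angpt2, which loosens vessels and acts together with VEGF-A, gave 650.0, 590, 826 and 715 in Pkd1V/V and 1503, 1785, 1345 and 1694 in wild-type replicates 1 to 4. Its log2 fold change was −1.17 ± 0.14 (SE, adjusted P = 0.000564 from limma). Its second probe was called lower too, but it was detected in 2 of the Pkd1V/V kidneys against all 4 wild-type kidneys. That probe passed the detection filter through the group where it is high, so no size is given. Tek, the angiopoietin receptor, fell by 1.24 and Tie1 by 0.78 on the log2 scale (adjusted P of 0.00157 and 0.00323 from limma). Angpt1, the mural ligand of Tek, had a log2 fold change of −0.76 ± 0.33 (SE) and was not called (adjusted P = 0.130).

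Because Vegfa is a classical target of hypoxia-inducible factors, other hypoxia-induced genes were examined. Of 10 tested genes 2 were called higher, 3 lower and 5 were not called (limma), with a median log2 fold change of −0.17. Ddit4, an inhibitor of mTORC1 signalling, rose by 0.72 and Slc2a1, the glucose transporter GLUT1, by 0.39 on the log2 scale (adjusted P of 0.0115 and 0.0581 from limma). Ndrg1 fell by 0.52 (adjusted P = 0.0357). Pfkfb3, a glycolytic regulator, and Car9, a carbonic anhydrase, were called lower (adjusted P of 0.0556 and 0.0742), but they were detected in 1 and 2 of the Pkd1V/V kidneys against all 4 wild-type kidneys, so both passed the detection filter through the group where they are high and no size is given. The calls of Slc2a1 and Pfkfb3 were each lost in 5 of 8 fits with 1 kidney left out, and that of Car9 in 6 of 8, with adjusted P up to 0.152, 0.127 and 0.169. For Slc2a1 the kidneys whose omission ended the call were mutants 1 and 2 and controls 1, 3 and 4, for Pfkfb3 they were mutants 2 and 3 and controls 1, 3 and 4, and for Car9 they were all but mutant 4 and control 3.

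Among the hypoxia-inducible factors and their regulators, 2 of 6 tested genes were called lower (limma), with a median log2 fold change of −0.24. Epas1, which encodes HIF-2α and is expressed in renal endothelium and interstitium, gave 70.5, 78.4, 84.2 and 94.9 in Pkd1V/V and 159, 96.9, 132 and 138 in wild-type replicates 1 to 4. It fell by 0.58 on the log2 scale (adjusted P = 0.0238 from limma), with a narrow gap between the groups. Egln2, an oxygen-sensing prolyl hydroxylase, fell by 0.40 (adjusted P = 0.0548), a call that ended when mutant 1 or 3 or control 2 or 4 was dropped, with adjusted P up to 0.139. Hif1a had a log2 fold change of −0.32 (adjusted P = 0.157) and was not called. Epo, another target, was below detection in all kidneys.

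Markers of the cells that make or receive these ligands also differed between the genotypes, and their part in the results above was not tested. Of 8 tested endothelial genes 5 were called lower (limma; Tek and Tie1 are in this list too), their median log2 fold change was −0.71, and the summed signal was 6065 to 7144 in Pkd1V/V and 10910 to 11990 in wild-type kidneys. Emcn, which encodes endomucin, fell by 1.01 and Pecam1 by 0.70 on the log2 scale, whereas Cdh5, the endothelial cadherin, had a log2 fold change of −0.11 (adjusted P = 0.567 from limma). The second tested probe of Pecam1 was not called, with a log2 fold change of −0.36 (adjusted P = 0.144 from limma) and overlapping groups. The endothelial sum and Pdgfb probe ILMN_2618714 both separated the genotypes, in opposite directions, and a link between them was not tested. The podocyte list had only Podxl and Wt1 on the array. Podxl fell by 1.002 (adjusted P = 0.00137 from limma). Wt1 was not called (adjusted P = 0.182 from limma), and its groups overlapped, at 651 to 951 in Pkd1V/V and 756 to 1541 in wild-type kidneys. The median log2 fold change of the pair was −0.73, and their sum was 1015 to 1373 in Pkd1V/V and 1565 to 2502 in wild-type kidneys.

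In the proximal tubule list all 4 tested genes were called lower (median log2 fold change −1.96), with a summed signal of 4022 to 8705 against 19650 to 26170. Slc5a2, a glucose transporter, and Slc34a1, a phosphate transporter, fell by 2.77 and 1.43 on the log2 scale (limma), and the fifth gene, Lrp2, was detected on too few arrays to be tested. Of 3 thick ascending limb genes, Slc12a1 and Umod were called lower (median −1.14), and the sums were 5639 to 8860 in Pkd1V/V and 15130 to 17500 in wild-type kidneys. The remaining gene, Cldn16, was not called (log2 fold change 0.038, adjusted P = 0.889 from limma). In the collecting duct list 2 of 3 genes were called higher, Scnn1b (1.09) and Hsd11b2 (0.80), with sums of 4751 to 6078 and 2877 to 3209. The remaining gene, Aqp2, was not called (log2 fold change 0.11, adjusted P = 0.858 from limma). Its groups overlapped, at 416 to 1435 in Pkd1V/V and 439 to 1038 in wild-type kidneys. Slc34a1, Umod and Aqp2, which define proximal tubule, thick ascending limb and collecting duct, were detected in all 4 kidneys of each genotype, in keeping with the tissue label.

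In the pericyte and mesangium list, a list of cell type markers, 4 of 6 genes were called higher and 1 lower (limma). The median log2 fold change was 0.57, and the summed signal was 2284 to 3257 in Pkd1V/V and 1747 to 1992 in wild-type kidneys. Without Gata3, left out after the values were seen because collecting duct cells also express it, the sums of the other 5 genes overlapped, at 1371 to 1844 and 1053 to 1402. Gata3 rose by 0.96 and Des, the mesangial desmin, by 0.68, while Rgs5, a pericyte gene, fell by 0.52 on the log2 scale (adjusted P of 0.00604, 0.0103 and 0.0865 from limma). The Rgs5 call ended when mutant 1 or 2 or control 1, 2 or 3 was dropped, with adjusted P up to 0.212. In the fibroblast list 2 of 5 tested genes were called higher and 2 lower (median 0.41). Col1a1, a fibrillar collagen, rose by 1.46 and Col3a1 by 0.49, while Lum and Dcn, small proteoglycans of the matrix, fell by 1.38 and 0.62 on the log2 scale, and the summed signals overlapped. The second tested probe of Col3a1 ran the other way and was not called (log2 fold change −0.60, adjusted P = 0.303 from limma).

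All 3 tested macrophage genes were called higher (median log2 fold change 2.02) while Itgam was below detection, and the list summed to 1290 to 4454 in Pkd1V/V and 483 to 564 in wild-type kidneys. Cd14 rose by 2.21 and Lyz2 by 2.02 on the log2 scale (adjusted P of 0.000149 and 0.00646 from limma). Macrophages can also make PDGF-B, and their part in the Pdgfb signal was not tested. The mutant kidney with the highest macrophage sum was replicate 1, at 4454, and that with the highest Pdgfb signal was replicate 2, whose macrophage sum of 1290 was the lowest of the mutants. Without Pkd1V/V replicate 1 the log2 fold change of Pdgfb was 1.21. The macrophage sums of the remaining mutants, 1290 to 2476, also exceeded every wild-type sum.

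**Figure D4:**
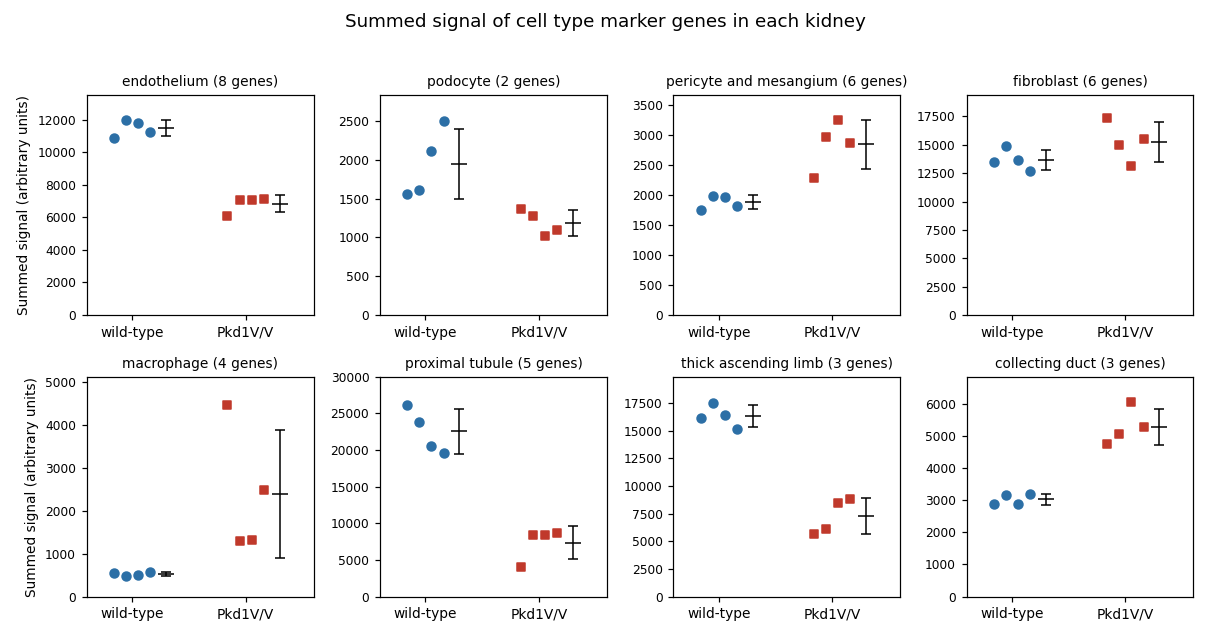
Summed signal of the marker genes of 8 cell types (arbitrary units, vertical axis from 0, separate scale for each panel) in the 4 wild-type (blue circles) and 4 Pkd1V/V kidneys (red squares), with mean and SD beside them. Endothelial, podocyte, proximal tubule and thick ascending limb sums were lower in all mutants, pericyte, macrophage and collecting duct sums were higher, and fibroblast sums overlapped, as pericyte sums also did without Gata3. The podocyte sum held only Podxl and Wt1, and the signal of Wt1 overlapped.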

How the data were processed

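Kidney RNA of 4 Pkd1V/V and 4 wild-type mice was hybridised to 1 array per kidney. The authors deposited background-subtracted signal intensity values without normalization between arrays, and the detection p-value of each probe. They also deposited the standard error of the signal over beads and the count of beads. The scanning and export software is not given in the sources used here. A second deposited intensity table had been quantile-normalized by the authors and served as an alternative.

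After quantile normalization in R 4.3.3, negative values were set to 0 and log2(signal + 16) was taken, so that fold changes of weak probes are understated. The 14221 probes with a detection p-value below 0.05 in 3 or more of 8 kidneys were fitted by limma 3.58.1 (lmFit, eBayes) and called at an adjusted P under 0.1. The study's methods used SAM with a delta of 1.0, which was run as an alternative. The scripts were tested on simulated data. Exact permutation tests were two-sided. The precision is limited by the number of arrays.

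Gene symbols of the platform annotation were updated through the RefSeq gene table for 23962 of 23978 named probes; 1719 probes have no name. Promoter windows are RefSeq sequences of GRCm38.p6. Probe sequences were not used here, so cross-hybridisation and transcript coverage were not checked. The members and lists were chosen with earlier results of these data known. All member probes and all receptor genes were named. From each other pathway list up to 3 genes called in each direction, and from cell type lists up to 2, were named by the smallest adjusted P, and further genes of these lists were named after their values were seen. Alternatives changed the offset, normalization, filter, probe choice, threshold, test and kidneys included.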

Additional observations from a re-analysis of the deposited data

Results flagged for a closer look

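Dixon's criterion was applied to the 4 kidneys of each genotype at the 11 tested member probes and 4 receptor probes, 30 groups in all, of which chance flags about 1 in 20. It singled out 3 kidneys. For Vegfb the signal of wild-type replicate 4 was 828, far below the other 3 wild-type kidneys at 1003 to 1018, and this is the kidney with liver transcripts. For Pdgfra the signal of Pkd1V/V replicate 1 was 2050, above the other mutants at 1463 to 1488. For Flt4 the signal of Pkd1V/V replicate 2 was 4.32, below detection, while the other mutants lay at 18.7 to 22.2. No kidney of the called members Vegfa, Vegfc, Pdgfa and Pdgfb stood out in this way.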

How the results depend on the processing

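Both Vegfa probes, Pdgfa and Pdgfb probe ILMN_2618714 kept direction and call in every alternative that gave them a value. Over 23 alternatives, or 22 for Vegfa probe ILMN_3121255, the log2 fold change ran from −1.05 to −0.78 and from −1.15 to −0.84 for Vegfa, from −0.86 to −0.65 for Pdgfa and from 1.05 to 1.32 for Pdgfb. The number of member probes called was 1 higher and 3 to 5 lower, and with 1 kidney left out 1 higher and 3 or 4 lower. Vegfc lost its call in 13 of 23 alternatives, among them median scaling, no detection filter and a threshold of 0.05. Pdgfc was called lower by SAM and at an unadjusted P under 0.05 of a test with equal variances per probe, and by no other alternative. Nrp2 probe ILMN_2766737, never called, changed sign with array weights and a trend (0.064), and it ran from −0.14 to 0.11 with 1 kidney left out, above 0 without replicate 2 of either genotype. With the replicate number as a block, 1 member probe was called higher and 3 lower, Vegfc being lost at an adjusted P of 0.124. The numbers are not stated to pair kidneys, and the deviations of same-numbered kidneys correlated at −0.25, 0.32, 0.21 and −0.28 over probes. Such correlations cannot settle whether same-numbered kidneys shared a litter or batch. Signals close to background limit the second Pdgfb probe, Nrp2 and Flt4, and no level could be given for Pgf, Pdgfd or Kdr.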
